A study of Mus musculus with 2 samples.

Results

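The genes described here are 4 adenylate cyclases (Adcy3, Adcy6, Adcy7 and Adcy9) and 4 cAMP phosphodiesterases (Pde4a, Pde4b, Pde4d and Pde7a), found by symbol among the 24421 gene symbols of each library. KEGG places them under purine metabolism, and in the cell they act in cAMP signaling. All 8 symbols were present, and all 8 reached the mean level set for comparison (1 RPKM, a read count scaled to gene length and library size). RNA was sequenced in bulk from granulocyte-monocyte progenitors (GMPs), purified by flow cytometry from the BM of female mice of an F1 semi-syngeneic (H-2b/d) background. One library came from non-tumor-bearing mice (NTB-GMP) and the other from mice with 4T1 mammary tumor cells implanted orthotopically (4T1-GMP). The labels name no drug, transgene or allele and give neither the age of the mice nor how many each library holds, and the study's methods describe its 4T1 experiments in BALB/c mice, a strain the labels do not name. Below, levels without tumor are those of NTB-GMP and levels with tumor those of 4T1-GMP. With 1 library per group no test between conditions was possible, so each difference compares these libraries. Intervals cover counting error only, and variation among mice and preparations was not measured. PCR reads without molecular identifiers are not independent molecules, so the intervals can be too narrow even for counting error.

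cAMP is the second messenger through which many G protein-coupled receptors act. The stimulatory G protein switches adenylate cyclases on, the inhibitory G protein restrains several of them, and phosphodiesterases end the signal by hydrolyzing cAMP to AMP. cAMP opens protein kinase A, which phosphorylates the transcription factor CREB. In neutrophils and monocytes, a rise in cAMP is known to restrain inflammatory functions, and Pde4 enzymes are the main route of its breakdown.

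Among the 8 genes, Adcy6, Pde4b and Pde4a were at least 2-fold lower in 4T1-GMP, and none was 2-fold higher. By RPKM, Adcy6 was 4.77-fold lower, Pde4b 2.42-fold lower and Pde4a 2.07-fold lower. The other genes differed by less, and the most abundant of them, Adcy7, was nearly level between the libraries. The count of 3 of 8, which includes Adcy6 although its level in 4T1-GMP alone was under 1 RPKM, stands beside 4.92% of all 10378 genes tested that were at least 2-fold lower and 3.25% that were at least 2-fold higher. Genes tested with a lower mean RPKM made up 4.99% for Adcy6, 10.4% for Pde4b and 20.9% for Pde4a. The 4.92% and 3.25% are therefore shares over genes mostly of higher level than these. The median log2 ratio (4T1-GMP over NTB-GMP, taken on log2(RPKM + 0.1), so that differences of low genes come out too small) was -0.44 for the 8 genes and 0.05 for all genes tested. With a pseudocount of 1 in place of 0.1, 1 gene, Adcy6, remained 2-fold lower, and after quantile normalization Pde4a was no longer 2-fold lower (log2 ratio -0.87).

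Markers of several cell types differed between these libraries, and their part in the values reported was not tested. All 12 GMP and primary granule markers were detected, with a summed level of 10754 RPKM without tumor and 16479 RPKM with tumor that was mostly Mpo, Elane, Prtn3 and Ctsg, and 1 of the 12 was at least 2-fold lower and 3 higher in 4T1-GMP. By any amount, 8 of the 12 were higher in 4T1-GMP and 4 lower, with a median log2 ratio of 0.49. The 3 at least 2-fold higher were Ms4a3 (479.4 and 1220 RPKM, log2 ratio 1.35), Prtn3 (1.24) and Ctsg (1.11). The 1 at least 2-fold lower was Cd34 (153.8 and 59.4 RPKM, log2 ratio -1.37). Kit and Fcgr3, which also mark the GMP gate, had log2 ratios of -0.67 and -0.89. Fcgr2b of the same list went the other way, with 47.3 and 64.6 RPKM (log2 ratio 0.45, interval 0.33 to 0.57). The 13 mature neutrophil markers summed to 524.5 and 4091 RPKM, with 12 at least 2-fold higher in 4T1-GMP. Lower in 4T1-GMP were the sums of 13 monocyte and dendritic cell markers (225.4 and 85.5 RPKM, 7 of 10 tested at least 2-fold lower), 8 basophil, mast cell and eosinophil markers (1824 and 650.3 RPKM, 6 of 8), 9 erythroid and megakaryocyte markers (22.3 and 6.13 RPKM, 3 of 3; Hbb-bs and Hba-a1 at 0 in both) and 9 stem and early progenitor markers (96.9 and 64.7 RPKM, 1 of 4). The 8 lymphocyte markers found summed to 205.7 and 350.0 RPKM, most of it Nkg7, with Cd3g at 0 in both libraries. The 10 mammary tumor and stromal markers summed to 53.3 and 23.2 RPKM, with 3 of 4 tested at least 2-fold lower in 4T1-GMP. Most of that sum was Pecam1 (29.5 and 11.3 RPKM) and Krt18 (12.8 and 8.90 RPKM). Epcam, Krt14 and Col1a1 were listed at 0 in both libraries. Over all genes tested, 4.92% were at least 2-fold lower and 3.25% at least 2-fold higher. Some markers counted were under 1 RPKM in 1 library and passed the filter only through the other. These were Mmp8, Mmp9 and Ly6g through 4T1-GMP, and Klf1, Gata1, Ly86 and Cx3cr1 through NTB-GMP. In bulk RNA, fewer cells that express a gene and less RNA per cell cannot be told apart, which holds for Adcy6, Pde4a and Pde4b alike.

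CREB binds the cAMP response element, whose full form is the palindrome TGACGTCA and whose core is TGACG. The 300-base start-site windows of RefSeq (GRCm38.p6, 250 bases before the start and 50 after) were searched on both strands. Windows existed for 6 of the 8 genes, 14 windows in all, because several genes have more than 1 start. Adcy6 and Pde7a had no window and were not searched. The full palindrome was in 0 of the 14 windows, against 1.79% of all 32851 windows. The core was in 4 windows, 1 each of Pde4a, Pde4b, Adcy7 and Adcy9, or 28.6%, against 20.8% of all windows. The stretch from 100 bases before to 50 bases after the start is shown for these 4, with the core or its reverse complement in capitals, because they hold both phosphodiesterase genes with a 2-fold difference and the 2 cyclases with the highest levels in 4T1-GMP.
Pde4a (chr9:21184001-21184150, + strand): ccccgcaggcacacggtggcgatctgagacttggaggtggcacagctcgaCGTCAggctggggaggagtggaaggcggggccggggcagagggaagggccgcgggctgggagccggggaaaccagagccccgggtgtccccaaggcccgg
Pde4b (chr4:102421455-102421604, + strand): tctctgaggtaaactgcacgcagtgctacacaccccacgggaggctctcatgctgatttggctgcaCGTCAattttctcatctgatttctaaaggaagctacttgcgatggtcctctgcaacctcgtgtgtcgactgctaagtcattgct
Adcy7 (chr8:88282892-88283041, + strand): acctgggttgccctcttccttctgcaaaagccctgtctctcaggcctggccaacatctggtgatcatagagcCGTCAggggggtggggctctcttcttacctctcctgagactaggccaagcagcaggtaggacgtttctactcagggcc
Adcy9 (chr16:4420449-4420598, - strand): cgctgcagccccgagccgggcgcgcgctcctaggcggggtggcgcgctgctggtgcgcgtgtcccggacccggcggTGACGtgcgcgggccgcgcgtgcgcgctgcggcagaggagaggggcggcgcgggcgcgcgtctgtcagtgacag
The core began 50 bases before the start in Pde4a, 34 in Pde4b, 28 in Adcy7 and 24 in Adcy9. Among the genes searched, the core lay in genes that differed 2-fold between the libraries and in genes that did not. These letters alone do not show that a factor was bound.

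Adcy7, a calcium-insensitive cyclase known as the major form in blood cells, had the highest level of the 8 genes in both libraries. Its RPKM was 22.4 without tumor (1444 reads) and 23.4 with tumor (4449 reads), a log2 ratio of 0.06 with a 95% Clopper-Pearson interval on the reads of -0.02 to 0.15. Adcy7 was thus the deepest-sampled member, and its interval included 0. The gene lies on chromosome 8 from 88272403 to 88329962 in the GENCODE M21 annotation of GRCm38, the assembly that mm10 names.

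Adcy6, a cyclase that calcium and the inhibitory G protein restrain, showed the largest difference of the 8 genes. Its RPKM was 2.61 without tumor (160 reads) and 0.547 with tumor (99 reads, although this library was 2.95 times as deep). The log2 ratio was -2.06, with an interval of -2.63 to -1.88 on the ratio of RPKM without the pseudocount. Adcy6 passed the filter on mean RPKM only through NTB-GMP, where it was high. The pseudocount matters at this level, and the log2 ratio was -1.22 with a pseudocount of 1. Adcy6 lies on chromosome 15 from 98589973 to 98610076. An antisense transcript, Gm29331, shares 605 exon bases with Adcy6, and the strand setting of the counting is not given in the sources used here.

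Adcy9, a widely expressed cyclase that forskolin hardly activates, had 2.73 RPKM without tumor (109 reads) and 1.73 RPKM with tumor (204 reads), a log2 ratio of -0.63 (interval -0.998 to -0.31). It was lower in 4T1-GMP but short of 2-fold. Adcy3, best known as the cyclase of odor signaling, had 1.33 RPKM without tumor (32 reads) and 1.27 RPKM with tumor (90 reads), and its log2 ratio of -0.06 had an interval of -0.66 to 0.56. These recovered reads, which may be lower bounds, leave any difference in Adcy3 within that interval possible. Adcy9 lies on chromosome 16 from 4287529 to 4420498, and Adcy3 on chromosome 12 from 4133103 to 4213525. Of the Adcy3 exon bases, 1380 overlap Cenpo, a centromere protein gene on the opposite strand. Cenpo had higher levels than Adcy3, 10.6 RPKM without tumor and 9.44 RPKM with tumor. The strand setting is not given, and whether this overlap altered the Adcy3 reads was not tested.

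**Figure D1:**
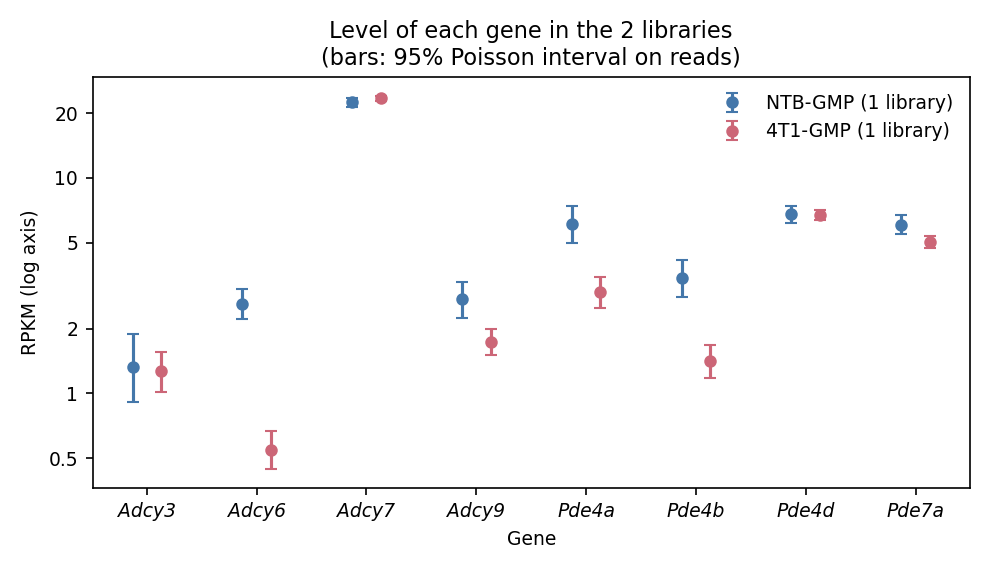
RPKM (log axis) of the 8 genes in the 2 libraries, 1 point per library, with bars for the 95% Poisson interval on its reads. Adcy7 lies above 22 RPKM in both libraries, and the bars of Adcy6, Adcy9, Pde4a, Pde4b and Pde7a do not overlap between the libraries. The share of all genes tested whose bars do not overlap was not computed, so this is not a trait particular to these genes.

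The Pde4 genes encode phosphodiesterases that hydrolyze cAMP and not cGMP, and rolipram inhibits them. Pde4b, the form known from inflammatory responses of monocytes and macrophages, had 3.42 RPKM without tumor (105 reads) and 1.41 RPKM with tumor (128 reads). Its log2 ratio was -1.22 (interval -1.66 to -0.89). Pde4a had 6.09 RPKM without tumor (106 reads) and 2.94 RPKM with tumor (151 reads), a log2 ratio of -1.02 (interval -1.42 to -0.68). Both genes were lower in 4T1-GMP, their intervals overlapped each other, and both included a 2-fold difference. The reads of Pde4a, Pde4b and Adcy3 were recovered with short gene lengths (1709, 3017 and 2365 bases) and may be lower bounds, in which case their intervals are too wide. Pde4b spans chromosome 4 from 102087543 to 102607259 with 13 annotated transcripts, and Pde4a spans chromosome 9 from 21165714 to 21213248 with 5. A level per gene does not tell their long and short isoforms apart.

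Pde4d, the remaining Pde4 gene tested, did not share that difference. It had 6.79 RPKM without tumor (487 reads) and 6.73 RPKM with tumor (1425 reads), a log2 ratio of -0.01 (interval -0.16 to 0.14), which lay apart from the intervals of Pde4a and Pde4b. Pde7a, a high-affinity cAMP phosphodiesterase that rolipram does not inhibit, had 6.07 RPKM without tumor (401 reads) and 5.04 RPKM with tumor (982 reads). Its log2 ratio was -0.26 (interval -0.44 to -0.10). The Pde7a difference was small and lower in 4T1-GMP, and 24.9% of all genes tested had a lower ratio. Pde4d lies on chromosome 13 from 108449948 to 109953461 with 20 annotated transcripts, and Pde7a lies on chromosome 3 from 19223108 to 19311322.

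**Figure D2:**
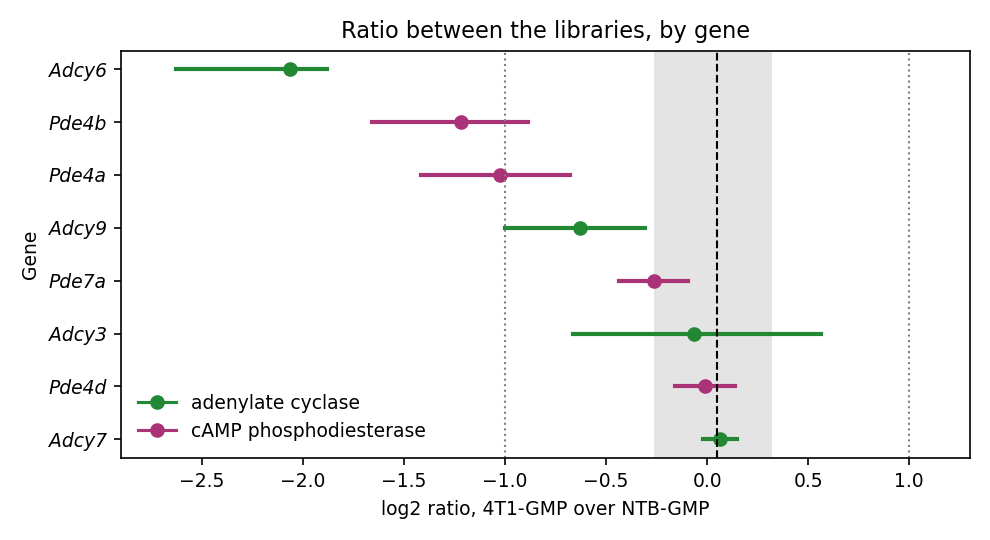
Log2 ratio of 4T1-GMP over NTB-GMP for each gene (points, log2(RPKM + 0.1) scale) with the 95% Clopper-Pearson interval on reads (lines, without the pseudocount). The dashed line is the median of all genes tested (0.05), the grey band their middle 50% and the dotted lines 2-fold; Adcy6, Pde4b and Pde4a lie at or beyond the lower 2-fold line.

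The order of the levels changed among the low genes. In NTB-GMP, Adcy7 stood above Pde4d, Pde4a and Pde7a, whose neighbouring intervals overlapped, and these above Pde4b, Adcy9 and Adcy6, which also overlapped in that order, with Adcy3 lowest. In 4T1-GMP, the order was Adcy7, Pde4d, Pde7a, Pde4a, Adcy9, Pde4b, Adcy3 and Adcy6. Intervals of neighbours in that library overlapped only between Adcy9 and Pde4b and between Pde4b and Adcy3. Adcy6 moved from above Adcy3 to below it, beyond the counting intervals in both libraries.

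**Figure D3:**
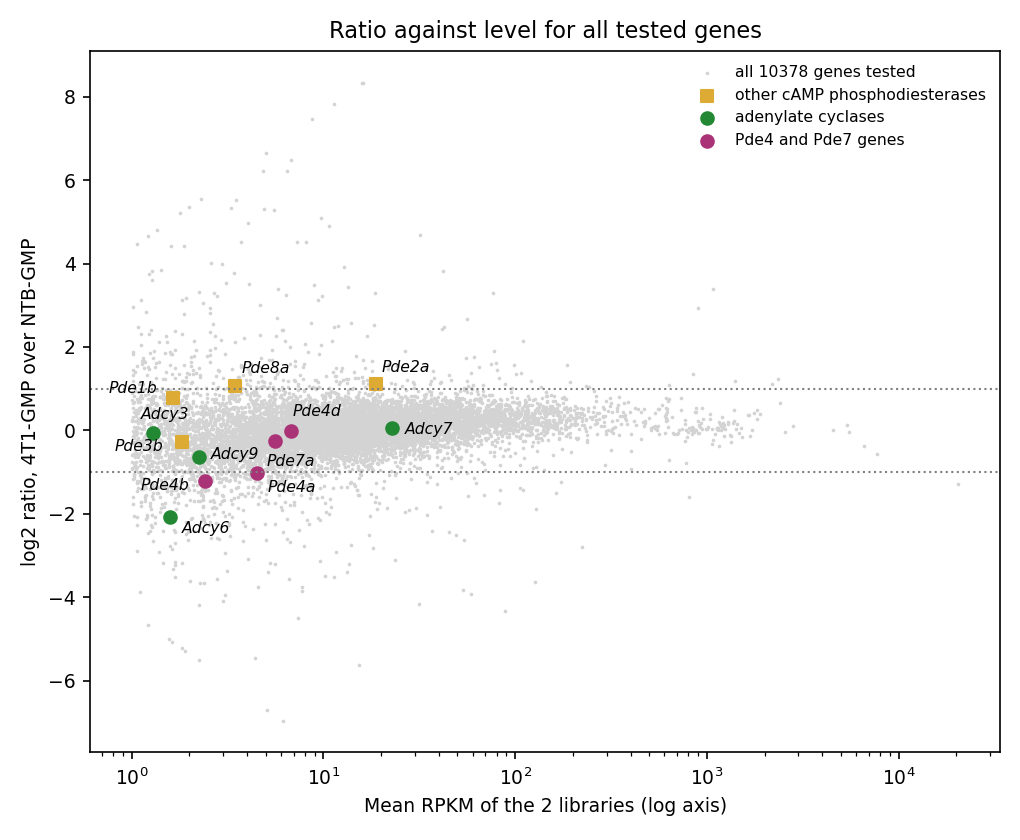
Log2 ratio against mean RPKM (log axis) for all 10378 genes tested (grey), with the 4 cyclases, the 4 Pde4 and Pde7 genes and 4 other cAMP phosphodiesterases marked. Adcy6, Pde4b and Pde4a lie below the lower dotted line (2-fold) at low mean levels, while Pde2a and Pde8a lie above the upper one.

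Of the 10 cyclase genes of the mouse, the 4 described made up nearly all of the signal. Adcy2, Adcy5, Adcy8 and Adcy10 were listed at 0 in both libraries, and Adcy1 and Adcy4 were below 0.06 RPKM. For scale, 3 reads on a 1 kb transcript equal 0.295 RPKM without tumor and 0.0999 RPKM with tumor. The summed cyclase level was 29.1 RPKM without tumor and 27.0 RPKM with tumor. Adcy7 made up 76.9% of that sum in NTB-GMP and 86.7% in 4T1-GMP, and the share of Adcy6 was 8.95% and 2.03%, so the make-up narrowed toward Adcy7.

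Outside the 8 genes, 2 phosphodiesterases were 2-fold higher with tumor. Pde2a, which hydrolyzes cAMP and cGMP and is stimulated by cGMP, had 11.8 RPKM without tumor and 25.6 RPKM with tumor, a log2 ratio of 1.11 (interval 0.99 to 1.25). Pde8a, a high-affinity cAMP phosphodiesterase, had 2.20 and 4.71 RPKM, a log2 ratio of 1.07 (interval 0.70 to 1.52). With reads of Rn45s, the ribosomal RNA precursor, left out of the library sizes, these ratios were 0.95 and 0.91, short of 2-fold. Of the 12 other cAMP-hydrolyzing phosphodiesterase genes, 4 were tested, 2 were at least 2-fold higher (Pde2a and Pde8a), 0 were 2-fold lower, and the remaining ones were Pde1b (log2 ratio 0.79) and Pde3b (-0.28). Pde1a, Pde3a, Pde8b and Pde11a were listed at 0 in both libraries.

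Over all 16 cAMP-hydrolyzing phosphodiesterase genes, of which 12 were above 0, the summed level was 40.3 RPKM without tumor and 51.3 RPKM with tumor. Without Rn45s the sums were 48.5 and 55.2 RPKM. The 4 Pde4 genes made up 41.0% of the sum in NTB-GMP and 22.4% in 4T1-GMP, while Pde2a made up 29.3% and 49.9%. Sums of RPKM describe RNA per gene length, and say nothing about enzyme activity.

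**Figure D4:**
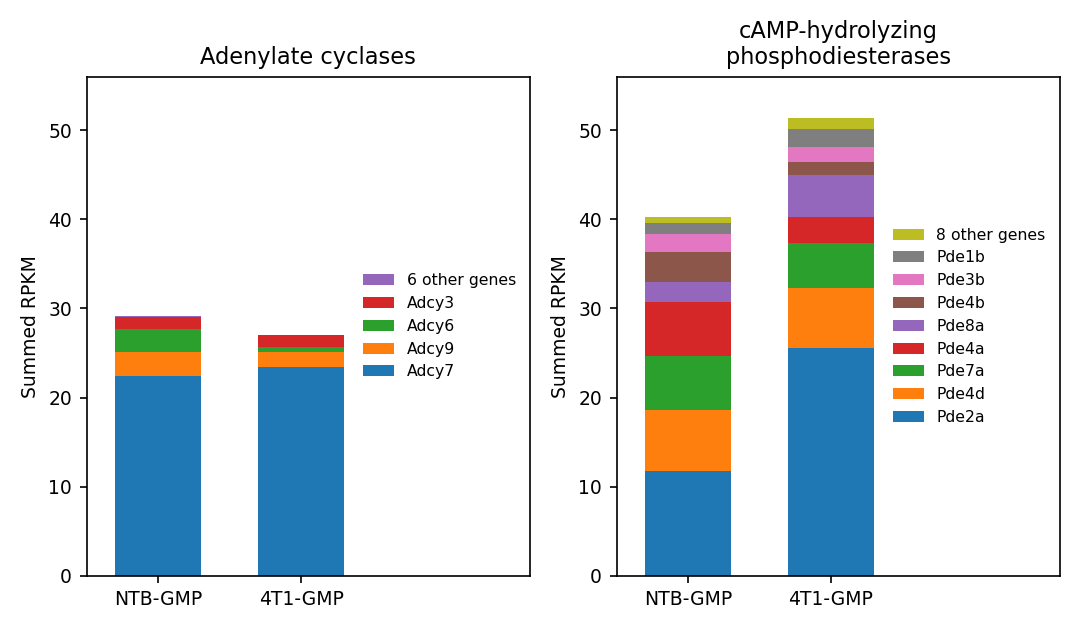
Summed RPKM of the adenylate cyclase genes (left) and the cAMP-hydrolyzing phosphodiesterase genes (right) in the 2 libraries, each bar split by gene, without error bars since each group has 1 library. Adcy7 fills most of both cyclase bars, and Pde2a grows from 29.3% to 49.9% of the phosphodiesterase bar.

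The genes before and after cAMP in the pathway were counted from lists of their own. Of 26 genes for stimulatory G proteins, receptors coupled to them and the receptor partner Ramp1 (log2 ratio -0.30), 8 were tested. Of these, 1 was 2-fold lower and 1 was 2-fold higher, with a median log2 ratio of -0.24. The lower one was Mc5r, a melanocortin receptor, with 17.1 RPKM without tumor and 4.21 RPKM with tumor (log2 ratio -1.99, interval -2.34 to -1.70). The higher one was Ptgir, the prostacyclin receptor, with 0.825 and 2.52 RPKM on 14 and 126 reads (a log2 interval of 0.81 to 2.52), and it was short of 2-fold with a pseudocount of 1 (log2 ratio 0.95). Gnas, the stimulatory G protein itself and the most abundant of the list, had 49.3 and 43.6 RPKM (log2 ratio -0.17, interval -0.23 to -0.12), and its ratio was -0.34 without Rn45s and -0.37 after quantile normalization.

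Of 21 genes for inhibitory G proteins and receptors coupled to them, 12 were tested, with a median log2 ratio of 0.27. The 4 that were 2-fold higher in 4T1-GMP were receptors for chemoattractants: C5ar1 for complement C5a (log2 ratio 4.42, interval 3.09 to 10.90, on 1 and 142 reads), Fpr2 (log2 ratio 3.78, on 5 and 252 reads) and Fpr1 (0.297 and 3.35 RPKM) for formyl peptides, and Cxcr2 for neutrophil-attracting chemokines (log2 ratio 1.79). The 2 that were 2-fold lower were Cx3cr1, the fractalkine receptor (-1.80), and P2ry14, a receptor for UDP-sugars (-1.61). Gnai2, the most abundant inhibitory subunit, had 151.8 RPKM without tumor and 170.9 RPKM with tumor (log2 ratio 0.17), and its ratio turned to -0.09 after quantile normalization.

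Downstream of cAMP, 2-fold differences were found in target genes of CREB and in none of the other lists counted. Over all genes tested, 4.92% were at least 2-fold lower and 3.25% at least 2-fold higher. At those shares, lists this short can hold none, so a count of 0 does not set a list apart. The number at least 2-fold different in either direction was 0 of 6 tested for protein kinase A subunits and inhibitors (median log2 ratio -0.07). It was 0 of 9 for A-kinase anchoring proteins (-0.22) and 0 of 3 for exchange factors, channels and export (-0.04). It was also 0 of 10 for the CREB family, its coactivators and the Sik kinases (-0.39). By the mean of the 2 libraries, the most abundant of each were Prkar1a, a regulatory subunit of protein kinase A (58.7 RPKM without tumor and 49.6 RPKM with tumor), Akap13 (59.0 and 38.7 RPKM), the cAMP exporter Abcc4 (25.3 and 31.4 RPKM) and the CREB relative Atf1 (24.2 and 27.6 RPKM). Within single libraries, the anchoring protein Ezr was above Akap13 with tumor (46.4 RPKM) and the coactivator Crebbp above Atf1 without tumor (25.5 RPKM). The Sik kinases of the CREB list, Sik1, Sik2 and Sik3, had log2 ratios of -0.39, -0.39 and -0.47, near the median of that list. Sik1 was also counted among the target genes of CREB below. No catalytic phosphodiesterase specific for cGMP reached the mean level for comparison, and Pde5a, the one nearest to it, had 1.21 and 0.777 RPKM. Pde6d, which was in that list with 20.3 and 20.5 RPKM, encodes a prenyl-binding protein without phosphodiesterase activity. Of 8 tested immediate target genes of CREB, 2 were 2-fold lower and 0 higher, with a median of -0.51. These were Fosb, with 12.3 RPKM without tumor and 0.953 RPKM with tumor (log2 ratio -3.56, interval -4.01 to -3.39), and Fos, the most abundant without tumor, with 29.2 and 12.4 RPKM (-1.22, interval -1.45 to -1.01). Both encode AP-1 subunits that many signals besides cAMP induce, and Junb, another AP-1 gene of the list, had 14.8 and 24.2 RPKM (log2 ratio 0.70) and was the most abundant with tumor. Fosb, Ptgir, Cx3cr1, C5ar1, Fpr1 and Fpr2 were each under 1 RPKM in the library where they were lower and, like Adcy6, passed the filter only through the other library.

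**Figure D5:**
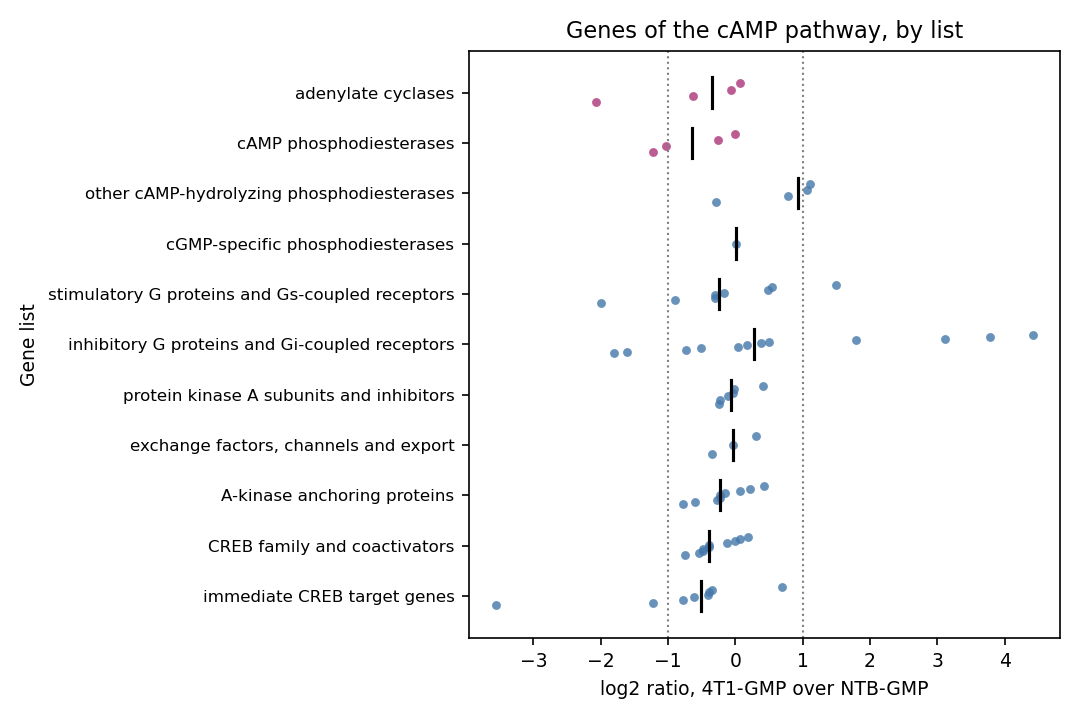
Log2 ratio of 4T1-GMP over NTB-GMP for each tested gene (points) of the cAMP pathway, by list, with the list's median as a black bar and 2-fold as dotted lines; the 8 genes described are purple, in the upper rows. The widest spread is among receptors coupled to inhibitory G proteins, from -1.80 to 4.42, while protein kinase A genes lie between -0.24 and 0.42; the 1 point in the row of cGMP-specific phosphodiesterases is Pde6d.

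Scaling touched every ratio by a common amount. Rn45s took 17.0% of the implied library size without tumor and 6.98% with tumor, and leaving it out shifts each log2 ratio of RPKM by -0.16. The share of tested genes higher in 4T1-GMP was 54.7%, or 39.2% without Rn45s. This shift lowers each ratio by construction, to -2.23 for Adcy6, -1.38 for Pde4b, -1.19 for Pde4a and -0.10 for Adcy7, so it is no check of the genes that were lower.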

How the data were processed

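The authors deposited 1 RPKM value per gene symbol and library. The submitters' processing notes name CASAVA 1.8.2, cutadapt 1.2.1, TopHat2 2.0.13, Picard 1.97, HTSeq 0.6.1, edgeR 3.12.1 and the build mm10, with no roles. Gene lengths and strand setting are not given in the sources used here. For all 14833 genes above 0, steps in the RPKM gave whole reads, which can be too low by a shared factor where the recovered length is short. The implied library sizes were 10180365 (NTB-GMP) and 30016263 (4T1-GMP) and not exactly whole, and whether a scaling factor was applied is not given in the sources used here. Recovered reads summed to 9486697 and 26353075.

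Ratios were taken as log2(RPKM + 0.1) over genes with mean RPKM of 1 or more, and 2-fold was the threshold, since 1 library per group allows no test. Intervals are 95% Clopper-Pearson on the ratio of reads and 95% Poisson on single levels. The recovery was tested on simulated data. Genes named were all 8 members, each pathway gene past 2-fold and the most abundant gene of each list by mean RPKM. Pde1b, Pde3b, Pde5a, Ezr, Crebbp, Junb, Nkg7, Ramp1, Sik1, Sik2, Sik3, Pecam1 and Krt18 were named after their values were seen. So were the GMP markers, the markers that passed the filter through 1 library and the genes at 0. The members and lists were chosen with earlier results of these data known. Pseudocounts, filters, quantile normalization, centring, library sizes without Rn45s and a 1.5-fold threshold were tried. Python 3.11.15, numpy 2.4.6, pandas 2.3.3, scipy 1.17.1 and matplotlib 3.10.9 were used.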

Additional observations from a re-analysis of the deposited data

How the results depend on the processing

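The count of genes at least 2-fold lower, 3 as reported, fell to 1 with a pseudocount of 1 and to 0 with a minimum mean of 5 RPKM, which leaves Adcy7, Pde4d and Pde7a, with a median log2 ratio of -0.011, since fewer genes were tested. The count was within 1.5 times of 3 under the other alternatives, and the count at least 2-fold higher was 0 under each. Adcy6, Adcy9, Pde4a, Pde4b and Pde7a were below 0 in every setting that kept them. Of these settings, only quantile normalization could have turned a negative ratio positive. A pseudocount cannot change a sign, a filter leaves a gene's ratio as it was, and centring and leaving out Rn45s only lower ratios. Adcy3 ran from -0.22 to 0.15, Adcy7 from -0.10 to 0.06 and Pde4d from -0.17 to 0.04. Of 51 alternative values for single members, 6 moved beyond their counting interval, and of 77 for list medians, 4 moved beyond the median bounds of their genes' intervals. The 51 include values under other filters, which equal the reported ratio by construction and could not move. By recovered reads, depth limits Adcy3 most, with 32 in NTB-GMP, which may be a lower bound. No paired analysis was possible because NTB-GMP and 4T1-GMP are single libraries, which also leaves no replicate to omit.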
